A study of Mus musculus with 30 samples.

Results

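The genes described here are 40 genes of the cell cycle and of mitosis, taken as a named list and looked up by symbol in 2 deposited expression tables. All 40 were listed in the table of young mice, among 26266 named genes, and in the table of aged mice, among 22781. The tables give TPM, a transcript level scaled by gene length and by the total of the library. RNA was measured in B cells of the mouse spleen, and the mutant mice carry a conditional knock-in of Ikzf3-L161R that is expressed only in B cells. Its product Aiolos is a zinc finger protein that controls transcription in lymphocytes.

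Every animal was of the C57BL/6 strain. The young table holds 3 wild-type libraries and 3 libraries of homozygous mutants (Ikzf3 fl/fl), at 2 to 3 months of age. The aged table covers 15 to 18 months of age. It holds 3 wild-type libraries (numbered 1 to 3), 4 libraries of mutant B cells from outside the leukaemia (non-CLL, numbered 2, 4, 5 and 6) and 5 libraries of CLL cells (1, 2, 4, 5 and 6). CLL cells are leukaemic B cells that resemble human chronic lymphocytic leukaemia. Libraries 1, 2, 4 and 5 of the mutant groups are from heterozygous mice (Ikzf3 fl/+) and number 6 is from a homozygous mouse. The design text states that CLL and non-CLL cells came from the same mice, so CLL library 1 alone lacks a partner. Wild-type and non-CLL B cells were taken with magnetic beads, whereas CLL cells were also sorted by flow cytometry as B220+CD5+, so cell sort and disease state cannot be told apart. The Cre line that switches the allele on, like whether wild-type mice carry it, is not stated in the labels or the design text. For the young and the wild-type libraries nothing states that each is a separate animal, so p-values measure the spread between these libraries, which may be in part technical.

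A dividing cell passes from growth through S phase, in which DNA is copied, and G2 to mitosis, in which the copies are parted. E2F factors switch on the genes of S phase, such as the MCM helicase, PCNA and the enzymes that make deoxynucleotides. The B-Myb, MuvB and FOXM1 complexes switch on the genes of mitosis later, through promoter elements called the cell cycle genes homology region (CHR) and the CCAAT box bound by NF-Y. Most B cells of the spleen rest in G0, while those of germinal centres divide fast, so transcripts of these genes in a bulk library come largely from the dividing minority. More dividing cells and more RNA per dividing cell cannot be told apart in such libraries.

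Promoters of 5 members are shown, since 4 of them (Ccnb1, Ccnb2, Cdk1 and Ube2c) are the mitotic genes lower in young mutants and Mcm6 stands for the S phase type. Each line holds the 110 bases before the RefSeq gene start (GRCm38.p6, the assembly of mm10), 5′ to 3′ on the strand of the gene. Capitals mark CHR (TTTGAA or TTCGAA), the CCAAT box and E2F letters (TTTCGCGC, TTTGGCGC, TTTCCCGC or TTTGCCGC), read on both strands, so that ATTGG is the CCAAT box, and TTCAAA the CHR, of the other strand.
Ccnb1 (chr13:100786487-100786596, minus strand): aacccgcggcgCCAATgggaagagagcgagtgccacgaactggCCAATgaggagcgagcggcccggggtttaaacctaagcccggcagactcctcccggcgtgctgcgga
Ccnb2 (chr9:70421555-70421664, minus strand): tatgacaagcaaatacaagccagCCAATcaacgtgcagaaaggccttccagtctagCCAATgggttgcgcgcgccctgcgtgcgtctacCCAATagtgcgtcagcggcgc
Cdk1 (chr10:69352913-69353022, minus strand): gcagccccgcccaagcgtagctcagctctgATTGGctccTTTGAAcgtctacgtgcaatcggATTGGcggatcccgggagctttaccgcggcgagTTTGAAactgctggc
Ube2c (chr2:164769819-164769928, plus strand): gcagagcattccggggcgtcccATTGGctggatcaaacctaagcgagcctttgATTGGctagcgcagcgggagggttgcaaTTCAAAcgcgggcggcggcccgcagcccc
Mcm6 (chr1:128359706-128359815, minus strand): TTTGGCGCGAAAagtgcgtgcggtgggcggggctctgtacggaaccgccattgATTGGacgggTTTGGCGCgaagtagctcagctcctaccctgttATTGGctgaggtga
Within these 110 bases, neighbouring CCAAT boxes of the 4 mitotic promoters were spaced 31 to 33 bases apart, counted from first base to first base: 32 in Ccnb1, 33 for both intervals of Ccnb2, 32 in Cdk1 and 31 in Ube2c. The pair in Mcm6 was 43 bases apart. The 4 were picked for their calls, and the spacing does not hold for mitotic members at large. First bases of the boxes lay at -53 and -8 from the start in Cdc20 and at -68 and -42 in Bub1. In Aurka, not called in young mutants, they lay at -51 and -19. Further upstream Cdk1 held 1 more CCAAT box and Ube2c 4 more, at other spacings. Mcm6 carried E2F letters at 2 places, and at the first of them the letters of both strands overlapped. Ccnb1 held no CHR letters in the 300 bases searched, and the CHR letters of Ccnb2 lay outside the stretch shown.

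Promoters of 33 of the 40 members were found in the RefSeq table, and windows of 300 bases (250 before to 50 after the start) were searched. CHR letters stood in 48.5% of the 33, against 21.7% of all 27025 genes with a promoter. CCAAT stood in 75.8% of members against 41.1% of all genes, and E2F letters in 27.3% against 2.6%. By role, CHR letters stood in 12 of 16 promoters of G2 and mitosis members (75%) and in 4 of 17 of S phase members (23.5%). E2F letters showed the opposite split, with 1 of 16 (6.25%) and 8 of 17 (47.1%). These matches describe letters in a window and not bound sites.

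The young comparison sets splenic B cells of homozygous mutant mice against those of wild-type mice at an early age. Of the 40 members, 4 were higher and 5 were lower in homozygous than in wild-type B cells, and 31 passed no threshold (limma on log2(TPM + 1), Benjamini-Hochberg adjusted p under 0.05). Over all 12219 genes tested, 38.4% were called higher and 12.6% lower, and the members' share of lower calls was near that of genes at large. The median log2 change of the 40 was -0.02, against 0.18 for all genes, and it turned to 0.01 without wild-type library 1 and to 0.02 without homozygous library 3. The higher members were Cdt1, Mcm4, E2f1 and Foxm1, and the lower ones were Ccnb1, Tyms, Ube2c, Cdk1 and Ccnb2. Each change was under 2-fold.

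Among the origin licensing genes, Cdt1 (chromosome 8, 122568015 to 122573130), the factor that loads the MCM helicase onto origins, was at 69.9, 71.7 and 65.2 TPM in the homozygous and 50.8, 41.5 and 49.04 TPM in the wild-type libraries. All 3 homozygous libraries lay above all 3 wild-type ones, a log2 change of 0.54 (SE 0.09, limma adjusted p = 0.00176). Mcm4 (chromosome 16, 15623897 to 15637400), a subunit of that helicase, was at 46.5, 51.5 and 45.8 TPM in the homozygous and 39.4, 35.2 and 41.9 TPM in the wild-type libraries. These groups did not overlap either, with a log2 change of 0.30 (SE 0.09, limma adjusted p = 0.0225). The other 5 subunits did not follow: Mcm2, Mcm3, Mcm5, Mcm6 and Mcm7 had log2 changes of -0.17, -0.08, -0.15, -0.12 and 0.04, and none was called. Pcna, the sliding clamp of DNA polymerase and the most abundant member in each young library, was at 210.3, 217 and 208 TPM in the homozygous and 198, 187 and 188 TPM in the wild-type libraries. Its groups did not overlap, yet its log2 change of 0.15 missed the threshold (limma adjusted p = 0.102). Mcm2 was at 32.7, 31.1 and 27.7 TPM in the homozygous and 36.1, 31.2 and 35.9 TPM in the wild-type libraries, and Mcm5 at 40.9, 41.4 and 37.4 TPM in the homozygous and 45.8, 40.05 and 47.5 TPM in the wild-type libraries. In both, the groups overlapped.

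Among the regulators of S phase entry, E2f1 (chromosome 2, 154559400 to 154569892), the founding activator of the E2F family, was at 7.796, 8.49 and 7.91 TPM in the homozygous and 6.83, 6.39 and 5.25 TPM in the wild-type libraries. The groups stood apart, with a log2 change of 0.35 (SE 0.13, limma adjusted p = 0.0458). Its relative E2f2 was at 32.6, 32.1 and 36.1 TPM in the homozygous and 39.7, 35.8 and 34.3 TPM in the wild-type libraries, overlapping and not called (log2 change -0.12). Cyclin E binds CDK2 to start S phase. Ccne1 was at 15.5, 14.7 and 12.9 TPM in the homozygous and 16.03, 11.6 and 13.6 TPM in the wild-type libraries, and Ccne2 at 2.12, 2.21 and 1.91 TPM in the homozygous and 2.72, 1.47 and 1.12 TPM in the wild-type libraries. Neither was called. Cdk2 was at 50.7, 59.7 and 64.4 TPM in the homozygous and 49.5, 45.9 and 54.7 TPM in the wild-type libraries, and its highest library was homozygous, but its groups overlapped (log2 change 0.21, limma adjusted p = 0.122).

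Of the 4 enzymes of nucleotide supply, 1 changed. Tyms (chromosome 5, 30038546 to 30073645), thymidylate synthase, was at 2.67, 3.51 and 1.57 TPM in the homozygous and 4.88, 4.099 and 4.06 TPM in the wild-type libraries. It was lower in each mutant library, with a log2 change of -0.61 (SE 0.21, limma adjusted p = 0.037), at levels near the bottom of the list. Rrm2, the small subunit of ribonucleotide reductase, was at 25.4, 26.7 and 12.6 TPM in the homozygous and 30.8, 22.4 and 25.5 TPM in the wild-type libraries. The third homozygous library was the low one and the groups overlapped. That library was the lowest of its group for 28 of the 40 members.

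The genes of G2 and mitotic entry held most of the lower calls. Ccnb1 (chromosome 13, 100778739 to 100786486), cyclin B1, which activates CDK1 at the onset of mitosis, was at 4.37, 4.56 and 2.87 TPM in the homozygous and 8.98, 7.51 and 7.01 TPM in the wild-type libraries. Every homozygous library was below every wild-type one, and its log2 change of -0.85 (SE 0.17, limma adjusted p = 0.00361) was the largest of the 40 in either direction. Ccnb2 (chromosome 9, 70407689 to 70421554), cyclin B2, was at 10.8, 12.1 and 9.48 TPM in the homozygous and 16.1, 15.4 and 14.3 TPM in the wild-type libraries, a log2 change of -0.47 (SE 0.11, limma adjusted p = 0.00761). Their partner kinase Cdk1 (chromosome 10, 69335146 to 69352912) was at 5.48, 4.79 and 3.79 TPM in the homozygous and 7.69, 6.53 and 6.46 TPM in the wild-type libraries, a log2 change of -0.48 (SE 0.15, limma adjusted p = 0.0251). The groups did not overlap for any of these 3, and both B cyclins and their kinase were lower. Foxm1 (chromosome 6, 128362994 to 128375886), a transcription factor of the mitotic programme, moved the other way. It was at 7.79, 7.37 and 8.08 TPM in the homozygous and 5.43, 4.47 and 6.27 TPM in the wild-type libraries, a log2 change of 0.46 (SE 0.14, limma adjusted p = 0.0205). Plk1, the polo-like kinase that promotes mitotic entry, was at 6.89, 5.61 and 5.33 TPM in the homozygous and 7.19, 6.89 and 7.44 TPM in the wild-type libraries and was not called (log2 change -0.24). Aurka, the Aurora A kinase of the spindle poles, was at 7.15, 7.702 and 6.46 TPM in the homozygous and 7.99, 6.67 and 7.03 TPM in the wild-type libraries, and it was not called either.

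In mitotic exit, Ube2c (chromosome 2, 164769929 to 164772902), the ubiquitin-conjugating enzyme of the anaphase-promoting complex, was at 12.8, 14.1 and 8.12 TPM in the homozygous and 16.6, 15.8 and 17.6 TPM in the wild-type libraries. All homozygous values were lower, the third by the most, with a log2 change of -0.51 (SE 0.18, limma adjusted p = 0.0412). Cdc20, the activator of that complex, was at 13.1, 8.86 and 9.26 TPM in the homozygous and 16.6, 11.9 and 11.9 TPM in the wild-type libraries, with overlapping groups (log2 change -0.34). None of the 9 genes of chromosomes, spindle and kinetochore was called. Mki67, the Ki-67 protein that coats mitotic chromosomes and marks dividing cells, was at 18.7, 18.7 and 14.4 TPM in the homozygous and 15.8, 10.5 and 12.8 TPM in the wild-type libraries. Its log2 change was 0.39 (limma adjusted p = 0.0663), positive where the B cyclins were negative, and its groups overlapped. Top2a, the topoisomerase that untangles chromosomes, was at 21.7, 21.6 and 23.1 TPM in the homozygous and 20.99, 17.9 and 21.2 TPM in the wild-type libraries, and Birc5, survivin, at 5.72, 4.34 and 3.85 TPM in the homozygous and 7.40, 5.28 and 4.93 TPM in the wild-type libraries. Neither was called. The 17 members not given by library here had log2 changes between -0.33 (Ccna2, cyclin A2) and 0.21 (Cenpe, a kinetochore motor), and none of them was called.

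**Figure D1:**
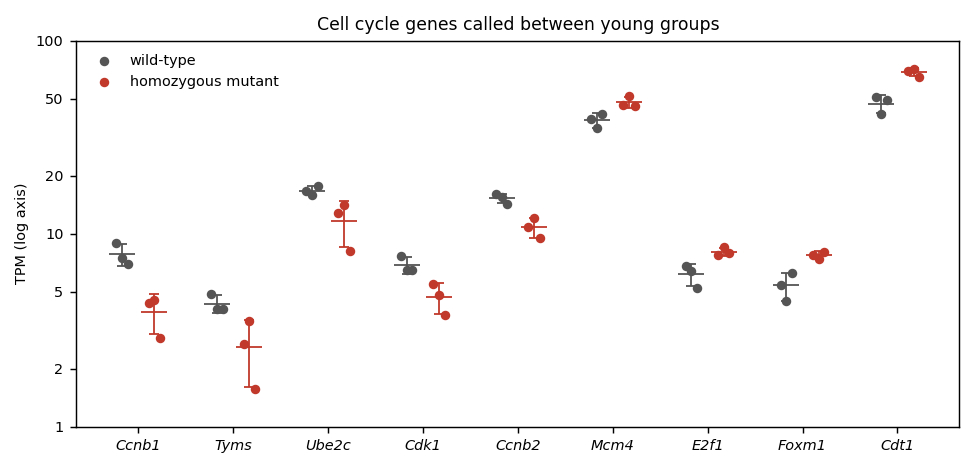
Level in TPM (log axis) of the members called in the young comparison, with a point for each library (3 wild-type, 3 homozygous) and the mean ± SD of each group. Cdt1, Mcm4, E2f1 and Foxm1 are higher, and Ccnb1, Ccnb2, Cdk1, Tyms and Ube2c lower, in the homozygous libraries. The groups do not overlap in any of the 9, which were picked for their calls.

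**Figure D2:**
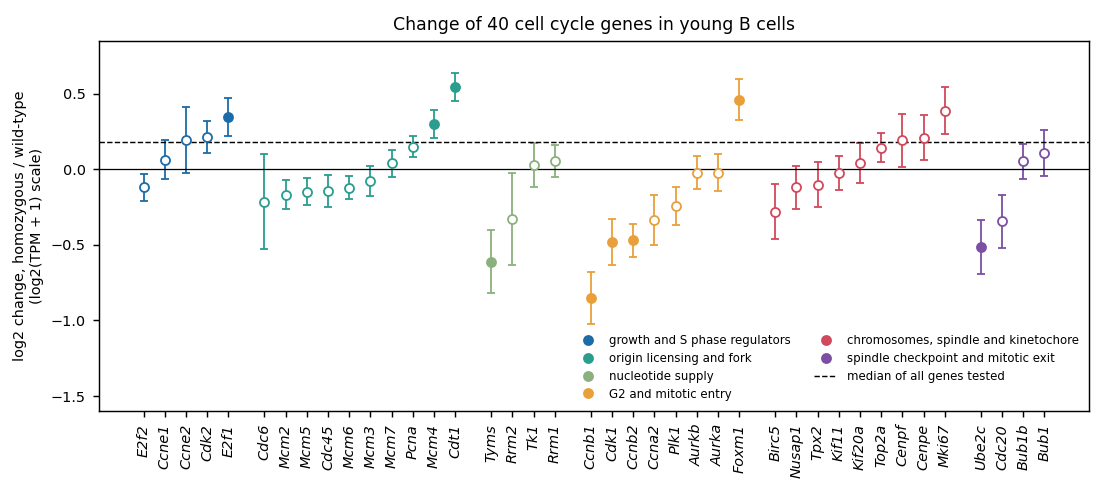
Log2 change of each of the 40 members between young homozygous and young wild-type B cells, ordered within roles, with its SE as a bar. Filled points are members called at a limma adjusted p under 0.05, open points are not, and the dashed line is the median change of all 12219 genes (0.18), above the members' median of -0.02.

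The counts moved with scaling and with the libraries used. With TMM rescaling, which takes the median change of all genes from 0.18 to about 0 (0.001534), 1 member was higher (Cdt1) and 13 were lower, and the members' median became -0.20. Of all 12219 genes 2867 were then higher and 2652 lower. E2f1, Mcm4 and Foxm1 then kept positive log2 changes of 0.17, 0.10 and 0.29 without passing the threshold, while the 5 lower members stayed lower. Cdt1, Ccnb1 and Ccnb2 were called in each of the 6 fits that left out 1 library. E2f1 was called in none of them, with adjusted p between 0.0571 and 0.133. Mcm4 lost its call without wild-type library 1 (limma adjusted p = 0.0585), wild-type 2 (0.0816) or homozygous 2 (0.0889). Foxm1 lost it without wild-type 1 (0.0560) or 2 (0.0728), or homozygous 1 (0.0531) or 3 (0.0739). Tyms lost it without wild-type 1 (0.115) or 2 (0.0621), or homozygous 1 (0.0769) or 3 (0.117). Cdk1 lost it without wild-type 1 (0.100), homozygous 2 (0.0549) or homozygous 3 (0.0950). Ube2c lost it without wild-type 1 (0.0956), 2 (0.0781) or 3 (0.102), or homozygous 1 (0.0602) or 3 (0.0740). In turn Mki67 was called higher without wild-type 1 (0.0284) or homozygous 3 (0.0439), Cdk2 higher without homozygous 1 (0.0338), and Cdc20 lower without homozygous 1 (0.0395).

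Markers of other cells differed between the young groups. The summed level of 12 neutrophil and macrophage markers was 2554, 5281 and 1451 TPM in the wild-type libraries and 409.6, 365 and 157 TPM in the homozygous ones, and 4 of the 12 were called lower and none higher. The sum of 6 myeloid progenitor markers, a dividing cell type, was 3.07, 13.5 and 14.7 TPM against 1.53, 1.02 and 0.208 TPM. That of 13 listed erythroid precursor markers was 312, 250.3 and 224 TPM against 242, 311 and 97.5 TPM. The 10 germinal centre markers summed to between 120.5 and 144 TPM in the wild type and between 217 and 251 TPM in mutants, of which Neil1 alone made up 38.8 to 53.6 TPM and 127 to 150.2 TPM. Their median log2 change was -0.18, with 2 of the 10 called higher and 1 lower. The T and NK cell sum was 24.5, 77.97 and 48.9 TPM against 20.9, 23.6 and 13.0 TPM. The 10 B cell markers summed to 9236 to 10930 TPM in the wild type and 9880 to 10590 TPM in mutants, and no marker of any list was at 0 in every library. Without wild-type libraries 1 and 2, which had the most neutrophil and macrophage signal, a lone wild-type library remained, so calls are not given. The members' median log2 change was then -0.04, beside 0.15 for all genes. The 4 libraries left gave log2 changes of -0.72 for Ccnb1 and -0.38 for Ccnb2, with the lone wild-type library assumed to vary like the rest. The part of other cells in the changes was not tested.

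The aged table carries a background that differs between groups. Olfactory receptor genes (1106 rows), which are not active in B cells, had a median of 0, 0.745 and 0 TPM in the wild-type libraries, 8.52, 8.06, 7.16 and 9.24 TPM in the non-CLL libraries, and 1.34, 2.71, 1.08, 2.55 and 9.66 TPM in the CLL libraries. In the young table this median was 0 in all 6 libraries. All 40 members were above the 95th percentile of these rows in each young and each aged wild-type library. In non-CLL libraries 2, 4, 5 and 6 this held for 34, 26, 37 and 20 members, and in CLL libraries 1, 2, 4, 5 and 6 for 39, 40, 40, 36 and 31. That percentile was 14.3, 15.8, 13.9 and 27.1 TPM in the non-CLL libraries and 18.0 TPM in CLL library 6. Ccne2 lay below the percentile of its library in all 4 non-CLL libraries and in CLL 1, 5 and 6, and Aurka in non-CLL 4 and 6 and in CLL 5 and 6.

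In the aged mice the members varied widely between libraries of a group. Their median level was 17.8, 41.7 and 19.0 TPM in wild-type libraries 1 to 3, and 23.2, 21.2, 42.6 and 26.9 TPM in non-CLL libraries 2, 4, 5 and 6. In CLL libraries 1, 2, 4, 5 and 6 it was 14.5, 48.3, 68.4, 22.7 and 37.7 TPM. Each group thus had 1 or 2 libraries in which most of the list was high: CLL 4 was the highest of its group for 25 members and CLL 2 for 8, wild-type 2 for 36, and non-CLL 5 for 31. CLL 1 was the lowest of its group for 27 members. The highest CLL value was a median of 5.00 times the lowest across the 40, against 3.28 in wild-type, 2.71 in non-CLL, 1.23 in young wild-type and 1.20 in young homozygous libraries. The median SD of the members on the log2 scale was 0.870 in CLL libraries, against 0.490 for all genes with a group mean of 10 to 200 TPM. The same pair was 0.873 and 0.396 in wild-type and 0.613 and 0.390 in non-CLL libraries.

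**Figure D3:**
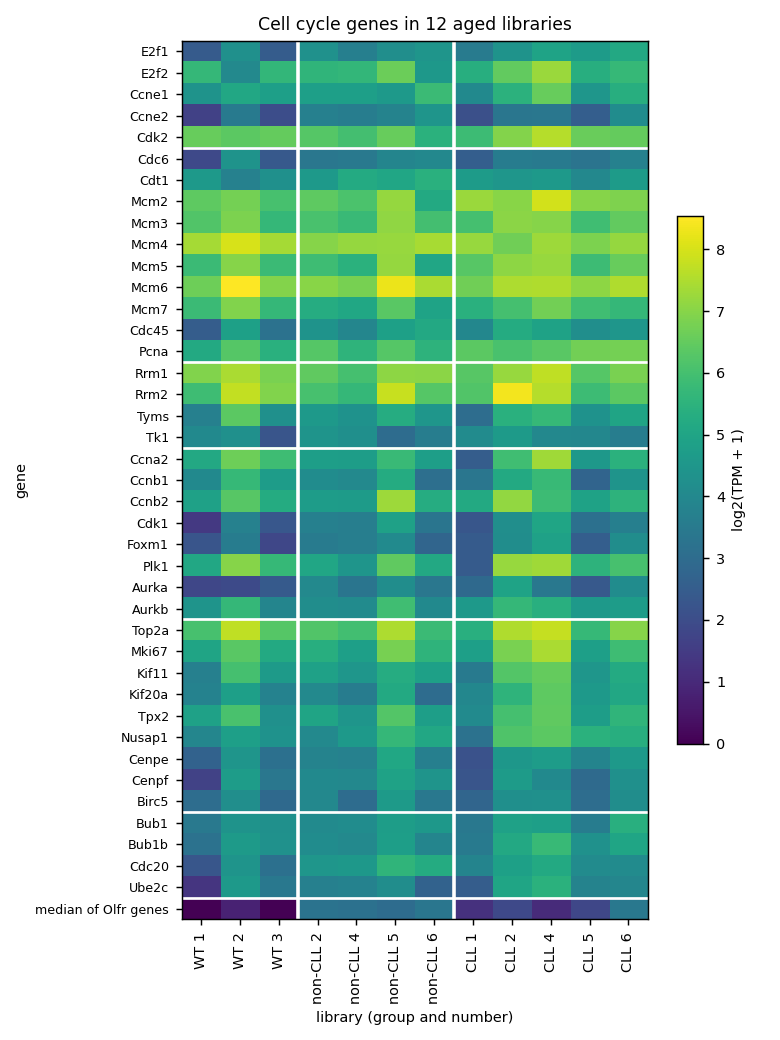
Levels of the 40 members (rows, by role) in the 12 aged libraries (columns, by group), as log2(TPM + 1), with the median of the olfactory receptor (Olfr) rows at the bottom. Within their groups the columns for CLL 2, CLL 4, wild-type 2 and non-CLL 5 are bright for most members and CLL 1 is dark, and the Olfr row is brightest in the non-CLL columns and CLL 6.

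Values of the members by library are given next in the order wild-type 1, 2 and 3, non-CLL 2, 4, 5 and 6, and CLL 1, 2, 4, 5 and 6. Among S phase regulators, E2f1 was at 4.48, 18.5 and 4.59 TPM in wild-type, 18.9, 11.98, 17.7 and 20.7 in non-CLL and 10.7, 19.9, 30.1, 24.6 and 34.5 in CLL libraries. Its level in wild-type library 2 lay within the range of both mutant groups, and the other wild-type libraries lay below every mutant one. E2f2 was at 50.2, 15.1 and 48.9 TPM in wild-type, 46.7, 48.9, 98.0 and 22.6 in non-CLL and 40.1, 88.05, 151, 39.7 and 51.8 in CLL libraries, Ccne1 at 19.8, 33.6 and 27.1 TPM in wild-type, 27.4, 27.4, 23.6 and 54.7 in non-CLL and 15.5, 43.8, 92.5, 21.2 and 39.5 in CLL libraries. CLL 4 was highest in each. Cdk2 was at 92.5, 81.7 and 89.9 TPM in wild-type, 76.7, 61.5, 92.3 and 42.97 in non-CLL and 56.8, 121, 191, 95.5 and 89.95 in CLL libraries, and it was the member that varied least among the wild-type libraries. Ccne2, the second E cyclin, was at 2.12, 10.5 and 3.01 TPM in wild-type, 12.1, 11.4, 12.98 and 20.6 in non-CLL and 3.25, 9.297, 9.37, 4.79 and 16.8 in CLL libraries. All 4 non-CLL values exceeded the wild-type ones, at levels not far from the olfactory receptor background.

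Among the licensing and fork genes, Mcm2 was at 83.9, 108 and 65.3 TPM in wild-type, 83.8, 68.7, 144 and 35.5 in non-CLL and 149, 129.5, 244, 125 and 117 in CLL libraries. Every CLL library lay above every wild-type library for Mcm2, which was not called. The share of all genes with such an order was not counted. Mcm4 showed the reverse order between these groups, at 166, 258 and 166 TPM in wild-type, 126, 143, 148 and 169 in non-CLL and 147, 102, 154, 115 and 146 in CLL libraries, and was the steadiest member among CLL libraries, with a highest value 1.51 times the lowest. Mcm5 was at 54.9, 125 and 55.8 TPM in wild-type, 57.9, 42.8, 144 and 32.03 in non-CLL and 78.7, 135, 149, 55.99 and 92.4 in CLL libraries. Pcna was at 35.3, 76.2 and 42.1 TPM in wild-type, 77.5, 45.5, 77.5 and 44.5 in non-CLL and 82.8, 66.6, 80.5, 104 and 107 in CLL libraries, so CLL 5 and 6 were the highest for the clamp, whereas most mitotic genes peaked in CLL 2 or 4. Cdt1 was at 22.7, 12.5 and 18.4 TPM in wild-type, 22.9, 35.9, 31.9 and 41.9 in non-CLL and 24.5, 21.3, 23.7, 14.6 and 24.96 in CLL libraries, with its highest mean in the non-CLL group. Mcm3, Mcm6, Mcm7, Cdc6 and Cdc45 ranged over 59.8 to 130.4, 101 to 181, 41.8 to 104, 4.802 to 12.4 and 14.5 to 37.02 TPM in CLL libraries. In wild-type libraries the same 5 ranged over 50.6 to 114, 98.4 to 369, 50.7 to 121, 2.67 to 19.7 and 4.68 to 28.02 TPM.

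Of the nucleotide enzymes, Rrm2 was at 57.7, 213 and 121 TPM in wild-type, 64.8, 50.8, 224 and 76.0 in non-CLL and 73.3, 329.7, 189, 56.98 and 81.9 in CLL libraries, with its top value in CLL 2. Tyms was at 12.2, 81.6 and 18.3 TPM in wild-type, 23.5, 19.2, 37.5 and 21.4 in non-CLL and 7.33, 41.6, 51.3, 19.6 and 30.5 in CLL libraries, with its top value in wild-type 2. Rrm1, the large reductase subunit, ranged from 76.98 to 211 TPM in CLL and 111 to 172 TPM in wild-type libraries. Tk1, cytosolic thymidine kinase, ranged from 11.2 to 24.1 TPM in CLL, 7.01 to 20.4 TPM in non-CLL and 3.78 to 18.4 TPM in wild-type libraries, and non-CLL library 5, the highest of that group for 31 members, was its lowest there.

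Among G2 and mitotic entry genes, Plk1 had the widest spread of the 40 in CLL cells, 35-fold, at 33.4, 126 and 51.96 TPM in wild-type, 32.2, 21.1, 86.6 and 34.7 in non-CLL and 4.52, 148, 158, 44.8 and 64.6 in CLL libraries. CLL 1 lay below every other aged library, while CLL 2 and 4 exceeded all of them. Ccnb1 was at 15.7, 52.1 and 24.99 TPM in wild-type, 16.9, 15.1, 36.8 and 7.704 in non-CLL and 9.22, 35.6, 53.1, 5.78 and 20.2 in CLL libraries, and Ccnb2 at 28.3, 78.2 and 36.6 TPM in wild-type, 25.4, 24.4, 156 and 38.05 in non-CLL and 34.97, 140.0, 56.3, 28.97 and 44.7 in CLL libraries. The B cyclins peaked in different CLL libraries, Ccnb1 in number 4 and Ccnb2 in number 2. Cdk1 was at 1.67, 12.4 and 4.03 TPM in wild-type, 12.2, 11.6, 28.2 and 8.91 in non-CLL and 3.82, 17.7, 31.6, 7.95 and 11.98 in CLL libraries, and Foxm1 at 3.796, 10.96 and 2.56 TPM in wild-type, 10.8, 11.5, 16.03 and 5.84 in non-CLL and 4.505, 17.1, 28.5, 4.84 and 17.2 in CLL libraries. Aurka was at 2.51, 2.75 and 4.29 TPM in wild-type, 15.1, 8.88, 17.2 and 9.37 in non-CLL and 6.63, 29.8, 9.73, 4.26 and 16.8 in CLL libraries, and all wild-type values lay below all non-CLL ones. Ccna2 ranged from 4.66 to 158 TPM and Aurkb, the kinase of the chromosomal passenger complex, from 22.8 to 50.4 TPM in CLL libraries.

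Among genes of chromosomes and spindle, Mki67 was at 30.9, 80.3 and 35.3 TPM in wild-type, 39.5, 26.99, 109 and 46.3 in non-CLL and 27.03, 110.4, 175, 27.4 and 58.6 in CLL libraries. CLL 2, CLL 4 and non-CLL 5 exceeded all wild-type libraries, and CLL 1 and 5 lay below all of them. Top2a was at 65.2, 212 and 76.2 TPM in wild-type, 73.4, 60.5, 179 and 55.7 in non-CLL and 40.95, 182, 219, 51.4 and 124 in CLL libraries, and Birc5 at 7.19, 17.8 and 6.62 TPM in wild-type, 14.8, 7.03, 23.9 and 9.701 in non-CLL and 5.83, 17.8, 18.5, 7.25 and 17.2 in CLL libraries. The kinesins Kif11 and Kif20a, which drive spindle assembly and cytokinesis, ranged from 10.5 to 89.9 and 14.6 to 83.8 TPM in CLL libraries. The spindle proteins Tpx2 and Nusap1 ranged from 15.9 to 85.5 and 8.37 to 83.1 TPM, and the kinetochore proteins Cenpe and Cenpf from 3.45 to 25.2 and 3.75 to 24.7 TPM. In each of these 6, CLL 1 was lowest and CLL 2 or 4 was highest. In mitotic exit, Cdc20 was at 3.82, 20.5 and 7.85 TPM in wild-type, 21.4, 22.6, 47.1 and 37.1 in non-CLL and 13.3, 27.9, 35.1, 16.1 and 16.4 in CLL libraries, and Ube2c at 1.47, 22.98 and 9.63 TPM in wild-type, 12.1, 12.9, 16.97 and 5.48 in non-CLL and 4.69, 31.6, 42.7, 13.1 and 14.2 in CLL libraries. The checkpoint kinases Bub1 and Bub1b ranged from 9.63 to 41.1 and 10.1 to 52.4 TPM in CLL libraries.

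**Figure D4:**
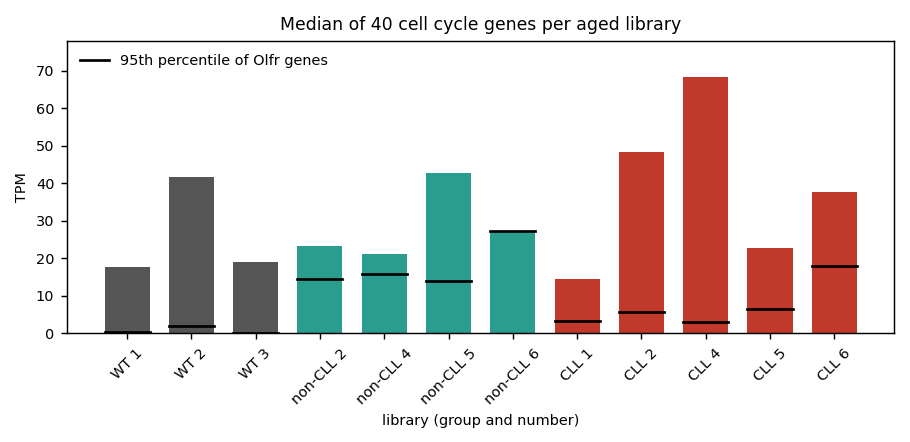
Bars give the median TPM of the 40 members in each aged library, coloured by group, and black lines give the 95th percentile of the olfactory receptor (Olfr) rows of that library. CLL 4 has the highest bar (68.4 TPM) and CLL 1 the lowest (14.5 TPM), and in non-CLL 6 the line (27.1 TPM) is at the height of the bar (26.9 TPM).

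Markers of other cells also stood apart in some of these libraries. CLL 2 had a myeloid progenitor sum of 2032 TPM (Mpo 715 and Elane 1143 TPM), against 9.04 to 60.9 TPM in the other CLL libraries, and a neutrophil and macrophage sum of 5212 TPM against 79.6 to 277 TPM. CLL 4, in which the members' median was higher still, had 43.3 and 155 TPM. Wild-type 2 had a T and NK cell sum of 624 TPM against 2.72 and 19.9 TPM, of which Cd3g alone made up 595.5 TPM, with Cd3e at 0.281 and Cd3d at 5.99 TPM. It had a plasmacytoid dendritic cell sum of 1217 TPM against 407 and 369 TPM, and the lowest B cell sum of its group (7345 TPM against 16580 and 13840 TPM). Non-CLL 5 had a germinal centre sum of 473 TPM against 176 to 271 TPM in the other non-CLL libraries. The part of these cells in the members' levels was not tested.

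CLL cells were compared with wild-type B cells to ask how leukaemic cells of mutant mice differ from normal B cells of that age. None of the 40 members was called (limma, adjusted p under 0.05), where 2.94% of 21202 genes were called higher and 0.604% lower. The log2 change was positive for 31 members, with a median of 0.40 against 0.93 for all genes. The members nearest the threshold were E2f1, 1.47 (SE 0.47, limma adjusted p = 0.0534), Aurka, 1.53 (SE 0.57, limma adjusted p = 0.0563), Mcm2, 0.81 (SE 0.32, limma adjusted p = 0.0623), and Pcna, 0.83 (SE 0.34, limma adjusted p = 0.0635). E2f1 averaged 23.9 ± 9.26 TPM (SD, n = 5) in CLL and 9.18 ± 8.04 TPM (n = 3) in wild-type libraries, and Mcm2 averaged 153 ± 52.1 TPM and 85.5 ± 21.1 TPM. Members of mitosis ranged from -0.74 (Ccna2) to 1.53 (Aurka). Cdk1 had a log2 change of 1.18 (SE 0.58), Cdc20 1.14 (SE 0.47) and Foxm1 1.09 (SE 0.57), whereas Mki67 had a log2 change of 0.45 (SE 0.69), Top2a -0.01 (SE 0.68) and Plk1 -0.23 (SE 1.21).

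Single libraries decided this count. Without CLL library 1, in which the list was lowest, 10 members were called higher, and without wild-type library 2, in which it was the highest of its group, 10 were called higher as well. Over all genes 4771 of 20685 were called higher in the first of these fits and 3742 of 22072 in the second, so the members' share without CLL 1 was near that of genes at large. Cdc20, Cdc45, Cdk1, E2f1, Foxm1, Kif20a, Mcm2, Nusap1 and Pcna were called in both of those fits. Aurka was called without CLL 1 and Ube2c without wild-type 2. Without CLL 4 there were 3 calls (Aurka, E2f1 and Pcna), where 7744 of 20885 genes were called higher. With both CLL 2 and wild-type 2 left out, a choice made after seeing the data, E2f1 was the 1 called (log2 change 2.11, limma adjusted p = 0.0109). A fit that weights libraries by their spread called 14 higher, where 10971 of 21202 genes were. Subtracting each library's olfactory receptor median left 0 member calls and a members' median of 0.17, where 48 of 13044 genes were called higher and 53 lower.

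CLL cells were also compared with non-CLL B cells, in 4 cases from the same mouse. No member was called (limma, adjusted p under 0.05), where 0.744% of 22316 genes were called higher and 5.02% lower. The members' median log2 change was 0.24 while that of all genes was -0.77, and 28 of the 40 were positive where 18.9% of all genes were. Under TMM rescaling the members' median was 0.95 beside -0.22 for all genes, and after background subtraction it was 0.68 beside -0.02. Without CLL 4 it was -0.01, without CLL 2 it was 0.05, and without CLL 1 it was 0.44. T and NK cell markers, of which 5 of 10 were called lower in CLL cells, summed to 18.8 to 389.6 TPM in CLL and 234 to 625 TPM in non-CLL libraries. In CLL 1, the top of the CLL range, Cd3g alone made up 361.6 TPM. Also, 6 of 7 plasmacytoid dendritic cell markers were called lower. The marker values were not corrected for background, and the part of these cells was not tested. Mcm2 came nearest to a call, 0.99 (SE 0.33, limma adjusted p = 0.0576), at 153 ± 52.1 TPM (n = 5) in CLL and 83.02 ± 45.4 TPM (n = 4) in non-CLL libraries. It was called without CLL 6 (limma adjusted p = 0.0359) and without non-CLL 5 (0.0225). Without CLL 6, Ccne2 was called lower as well, where 382 of 22078 genes were called higher and 10736 lower. Without non-CLL 5, 140 of 22424 genes were called higher and 460 lower. With the mouse as a block, which leaves the unpaired CLL 1 without weight, no member was called and the median was 0.44.

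Within mice the direction of the members' ratios differed. In mouse 2, 36 of the 40 were higher in CLL than in non-CLL cells, with a median log2 ratio of 0.80, from -0.35 (Ccne2) to 2.42 (Ccnb2). In mouse 4, 37 were higher, with a median of 1.37 and the top value at Plk1 (2.85). In mouse 6, the homozygous one, 31 were higher, with a median of 0.66. In mouse 5, 36 were lower and 4 higher, with a median of -1.18 and the lowest value at Ccnb1 (-2.48). The median ratios of all genes were -0.82, -1.16, -0.72 and 0.02 in mice 2, 4, 5 and 6. Genes at 20 TPM or more in both libraries of a mouse, a set that leaves out the lower members, had median ratios of -0.04, 0.07, 0.01 and 0.07. After subtraction of the olfactory receptor median the members' medians were 1.49, 2.07, -1.07 and 1.00. Mouse 5 paired the low CLL library 5 with non-CLL library 5, the one with the high germinal centre sum.

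The same-mouse log2 ratios of Mki67 were 1.46, 2.65, -1.95 and 0.33 in mice 2, 4, 5 and 6. Those of Plk1 were 2.16, 2.85, -0.94 and 0.88, and those of Mcm2 were 0.62, 1.81, -0.20 and 1.69. E2f1 departed from the mitotic genes in mouse 5, with ratios of 0.07, 1.26, 0.46 and 0.71, all positive. Pcna was similar in mouse 5, with ratios of -0.22, 0.81, 0.42 and 1.25. Cdc20 was lower in CLL cells in mice 5 and 6, with 0.36, 0.61, -1.49 and -1.13.

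**Figure D5:**
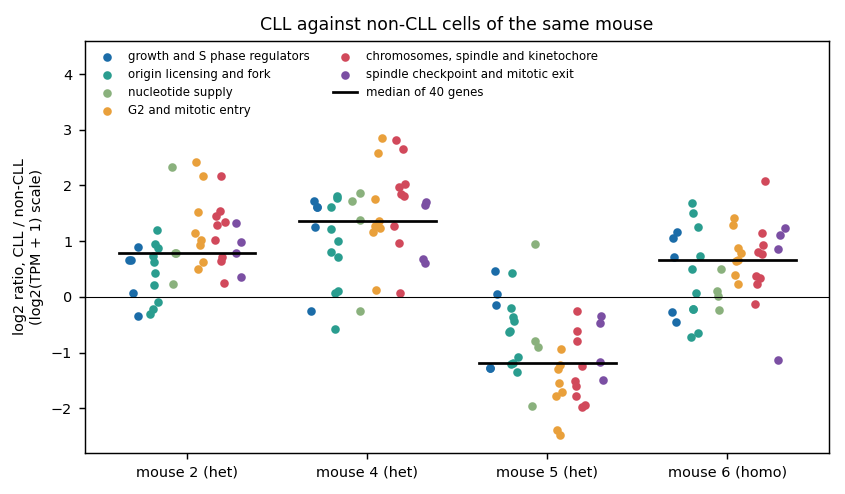
Log2 ratio of CLL to non-CLL level for each of the 40 members in each of the 4 mice with both libraries, coloured by role, with the members' median as a black bar. Horizontal position within a mouse separates the roles. Points lie mostly above 0 in mice 2, 4 and 6 (36, 37 and 31 of 40) and below 0 in mouse 5 (36 of 40).

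Non-CLL B cells were compared with aged wild-type B cells, which asks what differs in mutant B cells outside the leukaemia. Of the 40 members, 4 were called higher and 0 lower (limma), where 55.8% of 22150 genes were called higher and 1.48% lower. The members' median log2 change was 0.14, against 1.65 for all genes, and it was -0.11 without wild-type 1, -0.02 without wild-type 3, -0.05 without non-CLL 5 and 0.53 without wild-type 2. Aurka (chromosome 2, 172356190 to 172370886) was at 12.6 ± 4.14 TPM (n = 4) in non-CLL and 3.18 ± 0.964 TPM (n = 3) in wild-type libraries, a log2 change of 1.68 (SE 0.39, limma adjusted p = 0.00325). Cdc20 (chromosome 4, 118432901 to 118437343) was at 32.1 ± 12.3 TPM and 10.7 ± 8.72 TPM, 1.69 (SE 0.50, limma adjusted p = 0.0129). Ccne2 (chromosome 4, 11190433 to 11204779) was at 14.3 ± 4.28 TPM and 5.22 ± 4.62 TPM, 1.503 (SE 0.48, limma adjusted p = 0.0203). Cdt1 was at 33.1 ± 7.96 TPM and 17.9 ± 5.12 TPM, 0.86 (SE 0.32, limma adjusted p = 0.0389). It was also called higher in young homozygous cells, but not in CLL against aged wild-type cells (0.29, limma adjusted p = 0.613). The non-CLL and wild-type groups did not overlap for any of the 4, which were picked for their calls.

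Each of the 4 calls ended once background was taken off. After subtraction the log2 change of Aurka was -0.08 (limma adjusted p = 0.965), that of Ccne2 0.32 (0.807), that of Cdt1 0.47 (0.499) and that of Cdc20 1.23 (0.233), and 0 members were called, where 31 of 13426 genes were called higher and 12 lower. With TMM rescaling none was higher and 5 were lower (Ccna2, Cdk2, Mcm4, Mcm7 and Rrm1), where 10412 of 22150 genes were higher and 2760 lower, a lower share near that of the members, the members' median being -0.60 beside 1.18 for all genes. Leaving out wild-type 2 gave 9 higher calls (11995 of 22444 genes were higher), Cdt1 not among them (0.101). Leaving out wild-type 3 gave 2 (Aurka and Cdc20), where 11173 of 22471 genes were higher. Leaving out wild-type 1 gave Aurka and Cdt1 higher and Ccna2 lower, where 11210 of 22465 genes were higher and 203 lower. Without non-CLL 5, Aurka, Ccne2 and Cdc20 were higher and Ccna2 and Mcm7 lower. In that fit 11683 of 21339 genes were higher and 389 lower. Cdt1 also lost its call without non-CLL 4 (0.0957), 5 (0.0673) or 6 (0.0838) and without wild-type 3 (0.0776), Ccne2 without wild-type 1 (0.0863) or 3 (0.0751), and Cdc20 without wild-type 1 (0.0568). T and NK cell markers summed to 234 to 625 TPM in non-CLL libraries and to 2.72, 624 and 19.9 TPM in wild-type 1, 2 and 3. Cd3g alone made up 24.55 to 221.8 TPM in non-CLL libraries and 595.5 TPM in wild-type 2. Plasmacytoid dendritic cell markers summed to 915 to 2475 TPM in non-CLL and to 407, 1217 and 369 TPM in wild-type libraries. Of the first list 8 of 10 were called higher and of the second 6 of 7, beside 55.8% of all genes. These sums and calls were not corrected for background. The olfactory receptor median was 7.16 to 9.24 TPM in non-CLL libraries, where Cd3d was at 3.82 to 6.38 TPM and Cd4 at 16.6 to 45.3 TPM. The part of these cells was not tested.

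A wider set of 166 other cell cycle genes was read in 6 lists. In young mice 37 of 164 tested were called higher and 9 lower (limma), beside 38.4% and 12.6% of all genes. With TMM rescaling 16 were higher and 28 lower, beside 2867 and 2652 of all 12219 genes. In both fits the shares of the lists lay below those of all genes. Of the RB, E2F and MuvB regulators 8 of 20 were higher and 0 lower, a share of higher calls near that of all genes. Among them were Rb1, the retinoblastoma protein that restrains E2F, at 82.7 ± 6.31 TPM in mutants against 38.3 ± 2.62 TPM (n = 3 each, log2 change 1.09, limma adjusted p = 0.000102), and Sp1 (log2 change 0.81). Of the entry and checkpoint genes 7 of 24 were higher and 1 lower: Cdc25b, a phosphatase that activates CDK1, was at 118 ± 8.79 against 58.5 ± 6.57 TPM (log2 change 1.01), and Cks1b, a small CDK-binding protein, at 15.1 ± 2.08 against 25.9 ± 2.86 TPM (-0.75).

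Of 39 replication genes 11 were higher and 4 lower in young mutants. Cdc7, the kinase that fires origins, had a log2 change of 0.93 and Orc3, of the origin recognition complex, 0.61, while Gins2, a part of the active helicase, had -0.81 and Tipin -0.47. Of 12 supply genes 2 were higher (Dnmt1 0.52, Nasp 0.25) and 2 lower (Dctpp1 -0.76, Dut -0.38). The last pair encode nucleotide pyrophosphatases. Of 38 kinetochore genes 7 were higher, with Hjurp (0.57) and Cenpu (0.55), and Cenpm was lower (-0.47). Of 31 tested spindle genes Kif20b (0.50) and Prc1 (0.34) were higher and Stmn1, a microtubule destabiliser, was lower (-0.61).

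In aged mice none of 165 wider genes was called in CLL cells against wild-type or against non-CLL cells. Of all genes 2.94% were called higher and 0.604% lower in the first, and 0.744% and 5.02% in the second. In non-CLL against wild-type B cells 26 were higher and 2 lower, beside 55.8% and 1.48% of all genes. After background subtraction 0 were called, where 31 of 13426 genes were called higher and 12 lower. The higher ones lay at low levels, such as E2f7 at 7.13 ± 1.003 TPM (n = 4) against 0.469 ± 0.512 TPM (n = 3), Kif14 at 9.04 ± 0.851 against 1.59 ± 1.31 TPM and Cks2 at 17.7 ± 10.4 against 2.597 ± 2.17 TPM. The lower ones lay well above background: Rb1 at 69.1 ± 10.7 against 112 ± 25.3 TPM (log2 change -0.68) and Rbbp4, a histone-binding partner of RB and MuvB, at 66.4 ± 7.51 against 104 ± 11.1 TPM (-0.64). The 3 aged comparisons share libraries, so their values are not independent of each other.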

How the data were processed

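RNA was measured in 18 splenic B cell libraries of the 30 samples; 12 chromatin samples were not analysed here, and for 3 of those the labels gave no clear group. Per the labels' protocols, RNA was extracted from bead-selected B cells (purity at least 85% in the aged set). The authors deposited TPM values in 2 tables, and each library adds up to the full scale, so the number of reads is not known and intervals for counting error are not given. Per the submitters' processing notes, the genome was mm10 and the tools included STAR (2.4.0.1), MACS2 (2.2.0) and Bowtie2 (2.3.4.1), with no role given. Quantifier and annotation: not given in the sources used here. Left out were 887 rows without a name (4.44% to 9.36% of TPM) in the young table, and 26 and 25 rows whose names had become dates.

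From the deposited TPM, genes were kept if the number of libraries at 1 TPM or more reached the size of the smaller group, and log2(TPM + 1) was compared with limma 3.58.1 (R 4.3.3, trend, robust, two-sided, Benjamini-Hochberg over all genes kept, called at adjusted p under 0.05). A log2 change understates the change of low genes. Each table was analysed alone. The procedure was tested on simulated data. Olfactory receptor rows (1125 young, 1106 aged) served as background. Members, lists and rules were chosen with earlier results of these data known. The rule for naming gave per library each called member and 18 fixed genes, and at most 2 called genes per direction from each wider list. Alternatives were other pseudocounts (0.5, 5), filters (none, 5, 20 TPM), TMM, background subtraction, library weights, the replicate block, all aged libraries in one fit, and libraries left out. CLL and non-CLL libraries of 1 number share a mouse per the design text, although their deviations correlated at only -0.0346, 0.0258, 0.0759 and 0.132. Promoter sequences are from RefSeq; 7 members had no entry.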

Additional observations from a re-analysis of the deposited data

Results flagged for a closer look

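Of 80 sets of values (40 members in each of the non-CLL and CLL groups), 11 had 1 library far from the others by Dixon's test, which chance does for about 1 in 20. That rate is for independent, normally spread sets. The members share libraries and vary together, so the 11 are not separate findings. In 8 of them non-CLL library 5 was the high one: Mcm3 at 137 TPM (others 53.7 to 67.3), Mcm7 at 79.8 TPM (29.8 to 38.1), Rrm2 at 224 TPM (50.8 to 76.0), Ccna2 at 54.4 TPM (25.6 to 26.6), Ccnb2 at 156 TPM (24.4 to 38.05), Aurkb at 58.8 TPM (15.6 to 16.97), Top2a at 179 TPM (55.7 to 73.4) and Cenpe at 33.0 TPM (11.8 to 13.0). In the same group Ccne1 was far higher in library 6, at 54.7 TPM (23.6 to 27.4). Among CLL libraries Mcm2 was far higher in library 4, at 244 TPM (117 to 149), and Ccnb2 in library 2, at 140.0 TPM (29.0 to 56.3).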

How the results depend on the processing

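In the young comparison 9 members were called, and 5 without a filter, 2 (of 14 tested) with a 20 TPM filter, 14 with TMM rescaling, 19 with library weights, and 4 to 7 with 1 library left out. Calls over all genes moved too. Higher and lower calls were 4698 and 1539 of 12219 in the main fit and 4316 and 1424 of 21353 without a filter. They were 3113 and 889 of 6468 at 20 TPM, 2867 and 2652 of 12219 with TMM, and 6026 and 2255 of 12219 with weights. The members' median was -0.20 with TMM rescaling. Of the wider lists 46 genes were called, and 79 with weights and 27 to 56 with 1 library left out. With 1 library left out, 3469 to 4984 of all genes were higher and 1042 to 1876 lower. For CLL against wild-type, 0 members were called, and 3 with a pseudocount of 0.5, 14 with weights, 3 with all aged libraries in one fit, 0 to 10 with 1 library left out, and 1 without CLL 2 and wild-type 2 (chosen after seeing the data). Wider list calls were 0, and 16, 57, 15, 0 to 37 and 17 in the same order, and 12 with TMM rescaling. Higher calls over all genes were 623 of 21202, and 6879, 10971, 6224, 265 to 7744 and 622 in that order. With TMM rescaling they were 3449. For CLL against non-CLL, 0 members were called, and 2 with weights, 1 in the joint fit and 0 to 2 with 1 library left out. Wider list calls were 0, and 1 with a pseudocount of 5, 1 with a filter at 5 TPM, 1 with TMM rescaling, 14 with weights and 0 to 8 with 1 library left out. Of all 22316 genes, 166 were higher and 1121 lower in the main fit, 499 and 11206 with weights, and 213 and 3174 in the joint fit. With 1 library left out, 70 to 382 were higher and 233 to 10736 lower. For non-CLL against wild-type, 4 members were called, and 0 with a 20 TPM filter, 0 with background subtraction, 11 with weights and 2 to 9 with 1 library left out, and the median was -0.60 with TMM rescaling. Wider list calls were 28, and 0 with a 20 TPM filter, 0 with background subtraction, 74 with weights and 15 to 49 with 1 library left out. Of all genes 12353 of 22150 were higher in the main fit, 68 of 7220 at 20 TPM and 31 of 13426 after subtraction. With weights 14227 of 22150 were, and with 1 library left out 11124 to 12571. Aurka reversed to -0.0789 after subtraction (limma adjusted p = 0.965). In CLL libraries a median of 39 members were above the 95th percentile of olfactory receptor rows, and 34 above the 99th. With fewer genes tested, the 20 TPM filter dropped members. For the other moved values the cause was not tested.

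With the replicate block, 12 young members were called (5 higher, 7 lower) and 52 wider genes, where 4821 of 12219 genes were higher and 1810 lower. The young numbers are shared only by name (correlations -0.102, 0.242 and 0.316; libraries 2 and 3 of the homozygous group correlated best with their own number and library 1 did not). The block gave 0 member calls for CLL against wild-type (2 shared numbers of different mice) and for CLL against non-CLL (shared mice), so it changed no member call there, while calls over all genes went from 623 higher and 128 lower to 2 and 0 in the first and from 166 and 1121 to 120 and 577 in the second. No paired analysis was possible for non-CLL against wild-type because those groups share only 1 number. TPM keeps no depth, and the olfactory receptor background limits what can be said of members under its 95th percentile, up to 27.1 TPM in non-CLL 6.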
